A study of Mus musculus with 30 samples.

Results

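The genes described here belong to the tumor blood vessels and to endothelial adhesion, and 10 of 39676 gene identifiers were followed through 30 whole B16 melanoma tumors. They were taken by symbol: Pecam1, Cdh5, Kdr, Tek, Tie1, Vwf, Plvap, Esm1, Selp and Sele. All 10 had a row, and all 10 averaged 10 counts or more over the tumors, the filter that left 15926 genes to test. The tumors were taken on day 8 from young adult female C57BL/6 mice injected under the skin, 10 tumors of each of 3 types, which the labels call biological replicates. B16 is a mouse melanoma line, and the cells of all 3 types carried the glycoprotein B (gB) of herpes simplex virus and firefly luciferase (luc). B16-IFNA4 and B16-IFNA9 cells also carried a retroviral vector that makes the type I interferon (IFN-I) IFNα4 or IFNα9 with GFP, and B16-GFP cells, the controls, carried the vector with GFP alone. The interferon was thus made by the melanoma cells under a viral promoter, from 1 engineered and sorted line per type, so a trait of a line and an effect of its interferon cannot be told apart. The comparisons asked how the vessel genes stood in IFN-I–secreting tumors against the controls, and in the 2 IFN-I–secreting types against each other.

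Blood vessels are lined by endothelial cells, which are held together by VE-cadherin and PECAM-1 and grow out under vascular endothelial growth factor (VEGF) and its receptor VEGFR2. Angiopoietins act on the receptor TIE2, with TIE1 as a partner, to steady or loosen the vessel wall. Activated endothelium shows the selectins E and P on its surface, which catch passing leukocytes by their sugars and let them roll. New tumor vessels are known for tip cells that lead the sprouts, for leaky walls, and for poor capture of leukocytes.

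Sequencing depth was even, with 14598517 to 19788383 counts per tumor. The Ifna4 row held 81 to 188 counts in the 10 B16-IFNA4 tumors and 0 in the other 20 (a count of 0 allows up to 3). The Ifna9 row held 55 to 148 counts in the 10 B16-IFNA9 tumors and 0 elsewhere, so both rows matched the labels. Levels are given as CPM, the counts of a gene scaled to a common library size, after TMM scaling, which evens out differences in RNA composition. B16-GFP replicate 7 stood apart from the other tumors. Its TMM factor was 0.768 against 0.856 to 1.10 in the other 29 tumors, and the summed level of 3 melanoma genes was 24080 CPM against 7058 to 13060 CPM in the other 9 B16-GFP tumors. Its pan-leukocyte sum was 177 CPM against 313 to 625 CPM and its fibroblast sum 2852 CPM against 5810 to 13046 CPM. It was the lowest B16-GFP tumor for 7 of the 10 genes (Pecam1, Cdh5, Kdr, Tek, Vwf, Selp and Sele), so values without it are given where they matter. Its sum over 24 other endothelial genes, 1075 CPM, lay within the 936 to 1823 CPM of the other 9 B16-GFP tumors. As defining genes of other cells, Ptprc (leukocytes), Rgs5 (pericytes), Prox1 (lymphatic endothelium), Ckm (skeletal muscle), Adipoq (fat) and Pf4 (platelets, also made by macrophages) were all above 0 in all 30 tumors. Fewer cells of a type and less RNA per cell cannot be told apart in such whole tumors.

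The 10 genes lie on 7 chromosomes in the GENCODE M21 annotation of GRCm38, which is not the alignment used by the authors. Sele (1:164048234-164057677) and Selp (1:164115264-164150026) lie close together on the plus strand of chromosome 1, and Tek (4:94739289-94874976, plus) and Tie1 (4:118471191-118490061, minus) share chromosome 4. Cdh5 (8:104101625-104144511, plus) and Plvap (8:71497765-71511752, minus) share chromosome 8. Kdr lies at 5:75932827-75978458 (minus), Vwf at 6:125546774-125686679 (plus), Pecam1 at 11:106654217-106750628 (minus) and Esm1 at 13:113209659-113218098 (plus). All are protein coding, and the counts span their exons. Cdh5, Plvap, Esm1 and Selp overlap other genes on the opposite strand (Gm29682, Gtpbp3, Gzmk, and Gm16587 with Gm16548). The libraries kept the strand, but the strand setting of the counting was not given in the sources used here, so their counts are less certain.

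RefSeq promoters were at hand for 6 of the 10 genes and are shown for 4. They are those of Sele and Selp, the selectin genes, which both stood highest in B16-IFNA4 tumors, and of Kdr and Esm1, whose B16-IFNA4 and control tumors did not overlap in opposite directions. Each is the 250 bases before the annotated start (GRCm38.p6, 5′ to 3′ on the strand of the gene), with bases of a match to a searched motif in capitals. Sele is chr1:164047984-164048233 (plus), Selp chr1:164115014-164115263 (plus), Kdr chr5:75978456-75978705 (minus) and Esm1 chr13:113209409-113209658 (plus).
Sele: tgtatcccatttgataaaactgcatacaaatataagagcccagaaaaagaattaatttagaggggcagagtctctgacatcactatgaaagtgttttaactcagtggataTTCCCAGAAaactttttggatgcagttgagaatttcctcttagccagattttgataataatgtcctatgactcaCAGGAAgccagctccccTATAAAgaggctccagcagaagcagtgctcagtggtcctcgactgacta
Selp: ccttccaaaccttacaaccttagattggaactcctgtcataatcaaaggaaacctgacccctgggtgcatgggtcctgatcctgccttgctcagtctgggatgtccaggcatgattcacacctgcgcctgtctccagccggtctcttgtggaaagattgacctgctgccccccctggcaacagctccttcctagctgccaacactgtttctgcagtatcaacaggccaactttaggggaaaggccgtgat
Kdr: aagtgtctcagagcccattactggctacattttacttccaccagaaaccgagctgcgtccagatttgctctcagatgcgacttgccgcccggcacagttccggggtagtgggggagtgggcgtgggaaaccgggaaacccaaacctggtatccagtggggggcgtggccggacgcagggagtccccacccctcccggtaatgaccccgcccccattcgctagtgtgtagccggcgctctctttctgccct
Esm1: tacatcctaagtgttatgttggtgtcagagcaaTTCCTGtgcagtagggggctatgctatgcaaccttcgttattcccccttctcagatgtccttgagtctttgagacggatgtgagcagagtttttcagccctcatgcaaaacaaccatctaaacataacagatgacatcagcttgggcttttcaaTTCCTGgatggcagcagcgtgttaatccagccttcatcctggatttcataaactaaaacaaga
In all, 5 motifs were searched on both strands of 32851 promoters of this length. They were the interferon-stimulated response element core (in 2.98% of promoters), the STAT site TTCNNNGAA (7.02%), an NF-κB site (1.41%), the TATA box TATAAA (12.4%) and the ETS core CAGGAA (25.7%). The Sele promoter held the STAT letters at positions -140 to -132 from the start, the ETS letters at -66 to -61 and a TATA box at -49 to -44. In Esm1 the ETS letters stood on the minus strand at -217 to -212 and -63 to -58. None of these matches overlapped another. Selp and Kdr had no match to the 5 motifs in this window, which says only that these letters are not in it.

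In B16-IFNA4 tumors, 3 of the 10 genes were higher than in B16-GFP tumors (Kdr, Sele and Selp), 6 were lower (Esm1, Plvap, Tie1, Cdh5, Vwf and Pecam1), and Tek did not pass the test (edgeR quasi-likelihood test, Benjamini-Hochberg adjusted p under 0.05 over all 15926 genes). Of all genes, 31.3% were higher and 34.1% lower, so a call is common here. For Kdr and Esm1 the ranges of B16-IFNA4 and B16-GFP tumors were apart, as for 18.5% of all genes. The median log2 fold change was -0.60 over the 10 genes and 0.01 over all genes. Without B16-GFP replicate 7, 2 genes were higher and 6 lower.

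In B16-IFNA9 tumors, none of the 10 genes was higher than in the controls in edgeR or in DESeq2, and 6 were lower (Esm1, Plvap, Tie1, Cdh5, Pecam1 and Selp), while 26.9% of all genes were higher and 28.9% lower. Kdr, Tek, Vwf and Sele did not pass the test, also not at an unadjusted p under 0.05. The types did not overlap for Esm1, Plvap and Cdh5, as for 7.79% of all genes. The median log2 fold change was -0.85 over the 10 genes and 0.00 over all genes. With libraries scaled by their totals, 5052 genes were higher and 3608 lower in this comparison against 4281 and 4595 with TMM, and the median of all genes stood at 0.10.

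Between the 2 IFN-I–secreting types, Vwf was higher in B16-IFNA9 tumors and 6 genes were lower there (Kdr, Selp, Sele, Plvap, Cdh5 and Pecam1), against 10.5% of all genes higher and 7.25% lower. No gene of the 10 separated these 2 types fully, as 2.83% of all genes did. Tek, Tie1 and Esm1 did not pass the test. Leaving out B16-GFP replicate 7, whose spread enters the fit of all 30 tumors, made it 8 lower, with Tie1 and Esm1 added, while lower calls over all genes went from 7.25% to 11%. Both comparisons with B16-GFP share the same 10 control tumors.

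**Figure D1:**
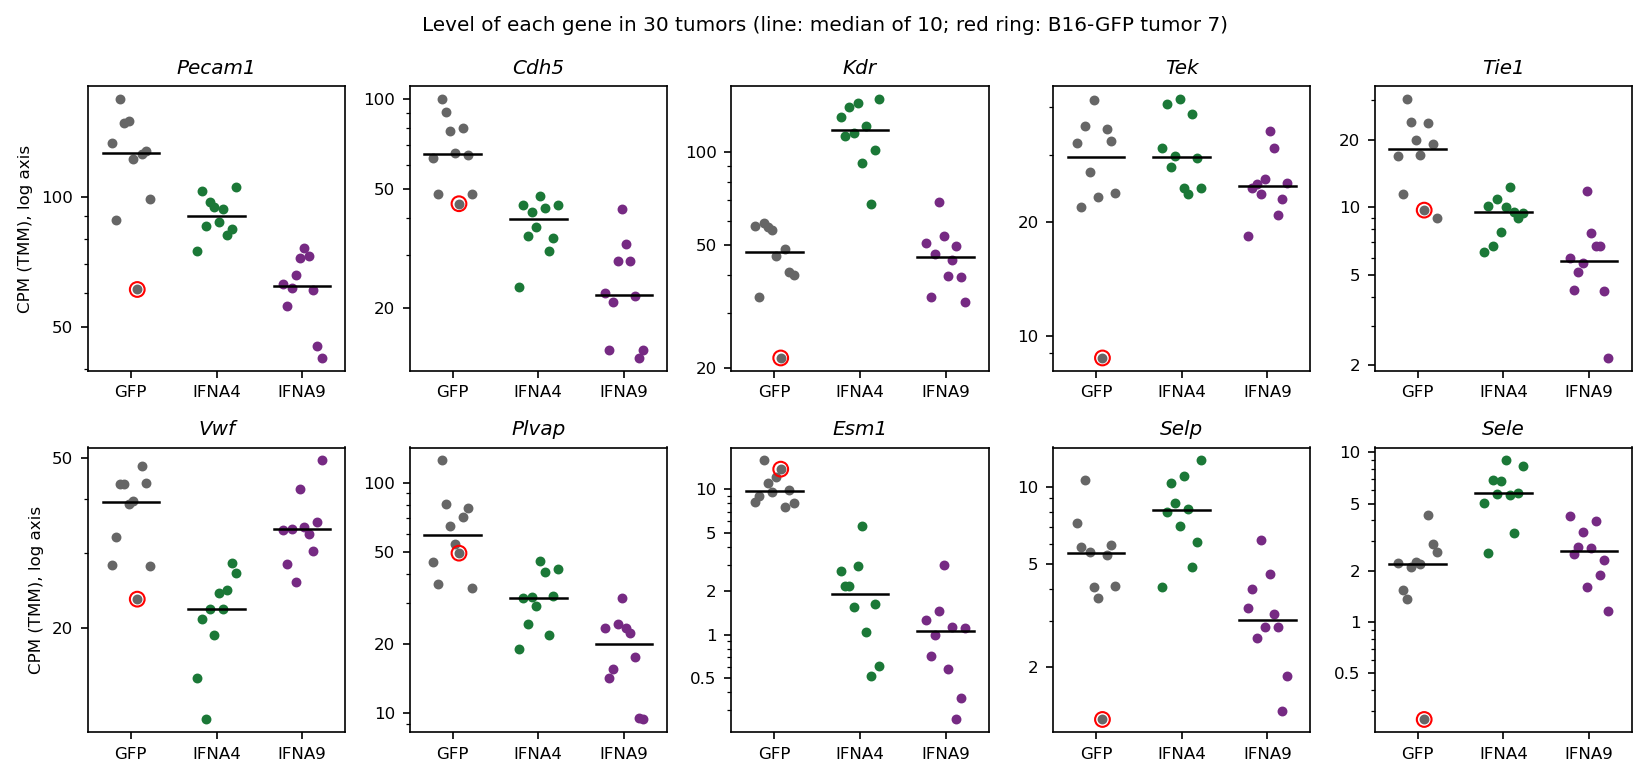
CPM of each gene on a log axis in the 10 tumors of each type. Points are tumors, black lines medians and the red ring B16-GFP replicate 7. All 10 B16-IFNA4 tumors lie above all control tumors for Kdr and below all of them for Esm1.

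Pecam1 and Cdh5 encode the junction proteins PECAM-1 and VE-cadherin. PECAM-1 is also on platelets and leukocytes, whereas VE-cadherin is largely endothelial. Pecam1 had 61.0, 127 and 168 CPM (lowest, median and highest tumor) in B16-GFP, 75.02, 90.5 and 106 CPM in B16-IFNA4, and 42.4, 62.2 and 76.0 CPM in B16-IFNA9 tumors. All tumors of both IFN-I–secreting types lay below the control median, and both ranges overlapped that of the controls. For B16-IFNA9 the overlap came from B16-GFP replicate 7 alone. Pecam1 was 1.35-fold lower in B16-IFNA4 (log2 fold change -0.43 ± 0.13 SE, edgeR adjusted p 0.00457) and 1.99-fold lower in B16-IFNA9 than in control tumors (-0.99 ± 0.13, 3.23e-07). It was 1.47-fold lower in B16-IFNA9 than in B16-IFNA4 tumors (-0.56 ± 0.13, adjusted p 0.00284).

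Cdh5 had 44.7, 65.4 and 100.3 CPM in B16-GFP, 23.4, 39.7 and 47.5 CPM in B16-IFNA4, and 13.6, 22.2 and 42.8 CPM in B16-IFNA9 tumors. In all, 9 of 10 B16-IFNA4 tumors and 10 of 10 B16-IFNA9 tumors were below every control tumor. The level was 1.79-fold lower in B16-IFNA4 (-0.84 ± 0.18, edgeR adjusted p 2.02e-04) and 2.85-fold lower in B16-IFNA9 (-1.51 ± 0.19, 1.02e-07) than in the controls. B16-IFNA9 lay 1.59-fold under B16-IFNA4 tumors (-0.67 ± 0.18, adjusted p 0.0109), with 6 of 10 tumors below all of theirs. Unlike Pecam1, Cdh5 thus parted B16-IFNA9 from control tumors without overlap.

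Kdr encodes VEGFR2, the main receptor through which VEGF drives vessel growth. It had 21.5, 47.3 and 58.8 CPM in B16-GFP, 68.2, 118 and 149 CPM in B16-IFNA4, and 32.6, 45.6 and 68.8 CPM in B16-IFNA9 tumors. B16-IFNA4 tumors stood alone, with 10 of 10 above the highest control tumor. Kdr was 2.55-fold higher in B16-IFNA4 than in control tumors (1.35 ± 0.16, edgeR adjusted p 1.60e-08). In B16-IFNA9 tumors it was 0.997 of the control level, with a 95% interval of the log2 fold change of -0.32 to 0.31 (adjusted p 0.982). The direct difference between B16-IFNA9 and B16-IFNA4 tumors was 2.56-fold (-1.35 ± 0.16, adjusted p 5.51e-07), and 9 of 10 B16-IFNA9 tumors lay below all B16-IFNA4 tumors. Thus a gene of the VEGF pathway was higher in the IFNα4 tumors while the junction gene Cdh5 was lower in them.

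Tek and Tie1 encode TIE2, the angiopoietin receptor, and its partner TIE1. Tek had 8.75, 29.6 and 41.8 CPM in B16-GFP, 23.6, 29.6 and 42.0 CPM in B16-IFNA4, and 18.3, 24.9 and 34.6 CPM in B16-IFNA9 tumors. The ranges of the 3 types lay over each other, with B16-GFP replicate 7 far below the rest. The log2 fold change was 0.15 for B16-IFNA4 (95% interval -0.20 to 0.50, edgeR adjusted p 0.459) and -0.16 for B16-IFNA9 (-0.51 to 0.19, 0.439) against the controls, and -0.31 between the IFN-I–secreting types (-0.66 to 0.04, 0.232). All 3 intervals held 0.

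Tie1 followed another course, with 8.98, 18.1 and 30.3 CPM in B16-GFP, 6.32, 9.51 and 12.3 CPM in B16-IFNA4, and 2.15, 5.80 and 11.9 CPM in B16-IFNA9 tumors. Of the tumors, 4 of 10 B16-IFNA4 and 9 of 10 B16-IFNA9 tumors were below all controls. It was 1.96-fold lower in B16-IFNA4 (-0.97 ± 0.22, edgeR adjusted p 3.20e-04) and 2.98-fold lower in B16-IFNA9 than in control tumors (-1.58 ± 0.22, 1.14e-06). Between the IFN-I–secreting types the log2 fold change was -0.60 ± 0.22 (adjusted p 0.0568), a call that passed in 5 of 8 other settings of the fit (adjusted p 0.0248 to 0.0756). The receptor TIE2 and its partner thus differed in whether they passed the test against the controls.

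Vwf encodes von Willebrand factor, which endothelial cells and platelets store and release to bind platelets. It had 23.4, 39.4 and 47.9 CPM in B16-GFP, 12.3, 22.2 and 28.5 CPM in B16-IFNA4, and 25.7, 34.0 and 49.3 CPM in B16-IFNA9 tumors. All 10 B16-IFNA4 tumors lay below the control median, 6 of them below every control, while 9 of 10 B16-IFNA9 tumors lay within the control range. Vwf was 1.71-fold lower in B16-IFNA4 than in control tumors (-0.77 ± 0.14, edgeR adjusted p 2.65e-05). In B16-IFNA9 tumors the log2 fold change was -0.09 (95% interval -0.38 to 0.20, adjusted p 0.597), and 0.01 with libraries scaled by their totals. It was 1.60-fold higher in B16-IFNA9 than in B16-IFNA4 tumors (0.68 ± 0.14, adjusted p 0.00107), with 8 of 10 tumors above all of theirs, and was the only member higher in that comparison.

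Plvap encodes the protein of the diaphragms of fenestrated endothelium and is often high in leaky tumor vessels. It had 35.1, 59.5 and 125 CPM in B16-GFP, 19.1, 31.8 and 45.9 CPM in B16-IFNA4, and 9.42, 19.9 and 31.6 CPM in B16-IFNA9 tumors. Again 7 of 10 B16-IFNA4 and 10 of 10 B16-IFNA9 tumors were below all control tumors. The level was 2.00-fold lower in B16-IFNA4 (-0.999 ± 0.22, edgeR adjusted p 2.64e-04), 3.34-fold lower in B16-IFNA9 (-1.74 ± 0.23, 2.71e-07), and 1.67-fold lower in B16-IFNA9 than in B16-IFNA4 tumors (-0.74 ± 0.22, 0.0192).

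Esm1 encodes endocan, a secreted proteoglycan made by tip cells and induced by VEGF. It had 7.58, 9.78 and 15.8 CPM in B16-GFP, 0.518, 1.89 and 5.62 CPM in B16-IFNA4, and 0.260, 1.05 and 3.01 CPM in B16-IFNA9 tumors. Every tumor of both IFN-I–secreting types was below the lowest control tumor. The counts behind these values were 127 to 252 in B16-GFP but 9 to 99 in B16-IFNA4 and 4 to 56 in B16-IFNA9 tumors, so the low levels are coarse. Esm1 was 4.99-fold lower in B16-IFNA4 (-2.32 ± 0.34, edgeR adjusted p 9.05e-07) and 9.54-fold lower in B16-IFNA9 tumors (-3.25 ± 0.36, 1.33e-08), the largest of the 10 differences in both comparisons. Between the IFN-I–secreting types the log2 fold change was -0.93 ± 0.35 (adjusted p 0.0642, 0.0298 to 0.0863 over the other settings of the fit). B16-GFP replicate 7, the lowest control for 7 of the 10 genes, had 13.8 CPM of Esm1, the second highest control.

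Sele and Selp encode E-selectin, which endothelial cells make anew on activation, and P-selectin, which endothelial cells and platelets store and bring to the surface. Sele had 0.268, 2.22 and 4.30 CPM in B16-GFP, 2.55, 5.73 and 8.96 CPM in B16-IFNA4, and 1.17, 2.63 and 4.23 CPM in B16-IFNA9 tumors. As many as 8 of 10 B16-IFNA4 tumors were above all controls, and B16-IFNA9 tumors lay within the control range. Counts were few, at 3 to 76 in B16-GFP, 50 to 158 in B16-IFNA4 and 19 to 71 in B16-IFNA9 tumors. Sele was 2.68-fold higher in B16-IFNA4 than in control tumors (1.42 ± 0.28, edgeR adjusted p 5.24e-05), and 1.32 without B16-GFP replicate 7 (adjusted p 1.86e-05). In B16-IFNA9 tumors the log2 fold change was 0.28 (95% interval -0.29 to 0.84, adjusted p 0.403). B16-IFNA9 lay 2.21-fold under B16-IFNA4 tumors (-1.15 ± 0.27, adjusted p 0.00356).

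Selp had 1.25, 5.51 and 10.6 CPM in B16-GFP, 4.09, 8.09 and 12.6 CPM in B16-IFNA4, and 1.35, 3.03 and 6.19 CPM in B16-IFNA9 tumors. The 3 types overlapped, with 8 of 10 B16-IFNA4 tumors above and 9 of 10 B16-IFNA9 tumors below the control median. It was 1.499-fold higher in B16-IFNA4 than in control tumors, at the edge of the test (0.58 ± 0.26, edgeR adjusted p 0.0491). The call was lost in 5 of 8 other settings of the fit (adjusted p 0.0295 to 0.0663), among them the fit without B16-GFP replicate 7 (0.49, adjusted p 0.0663), and in 22 of 30 fits with 1 tumor left out (0.0118 to 0.104). In B16-IFNA9 tumors Selp was 1.63-fold lower than in the controls (-0.71 ± 0.27, adjusted p 0.0241). That call was lost with libraries scaled by their totals (-0.62, adjusted p 0.0520) and without B16-GFP replicate 3, the highest control (-0.55, 0.0723, over all alternatives 0.00468 to 0.0723). The difference between the IFN-I–secreting types was the firmest, 2.45-fold lower in B16-IFNA9 (-1.29 ± 0.27, adjusted p 9.15e-04), with 8 of 10 tumors below all B16-IFNA4 tumors.

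Per kilobase of exon, Plvap was the most abundant of the 10 transcripts in control tumors at 32.2 ± 13.5 CPM per kb (SD, n = 10), followed by Pecam1 at 19.6 ± 5.11 and Cdh5 at 16.3 ± 4.47. A middle set held Tek at 5.98 ± 1.99, Kdr at 5.10 ± 1.35 and Esm1 at 5.01 ± 1.28, whose means differed by less than their SD. Tie1 (3.68 ± 1.38), Vwf (2.30 ± 0.519), Selp (1.22 ± 0.557) and Sele (0.748 ± 0.359 CPM per kb) were lower. In B16-IFNA4 tumors Kdr reached 13.01 ± 2.79 CPM per kb, near Plvap at 16.1 ± 4.52 and Pecam1 at 14.57 ± 1.56, and Esm1 was the lowest of the 10 at 1.00 ± 0.709. B16-IFNA9 tumors had Pecam1 at 9.88 ± 1.80 and Plvap at 9.63 ± 3.57 on top, within 1 SD of each other, and Esm1 again last at 0.518 ± 0.372 CPM per kb. Between B16-GFP and B16-IFNA4 tumors, Sele went from the last to the sixth place in this order, Esm1 from the sixth to the last and Kdr from the fifth to the third. Some of these places lay within 1 SD of others. In B16-IFNA4 tumors Sele (2.02 ± 0.682) was near Tie1 (1.88 ± 0.374) and Selp (1.83 ± 0.610), and Esm1 near Vwf (1.35 ± 0.311).

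To set the genes against other endothelial genes, 24 further genes of general endothelium (30 were named, 24 had a row) were compared in the same fit. In B16-IFNA4 tumors 1 was higher and 17 lower than in the controls, against 31.3% and 34.1% of all genes. In B16-IFNA9 tumors none was higher and 20 lower, against 26.9% and 28.9% of all genes. The median log2 fold changes of the list were -0.50 in B16-IFNA4 and -1.04 in B16-IFNA9 tumors (0.01 and 0.00 over all genes). The furthest in B16-IFNA4 tumors were Gpihbp1, the capillary anchor of lipoprotein lipase (-1.57 ± 0.25, edgeR adjusted p 3.29e-06), Emcn, the sialomucin endomucin (-1.32 ± 0.16, 3.17e-08), and Myct1 (-1.30 ± 0.18, 3.60e-07). In B16-IFNA9 tumors they were Esam, an endothelial junction molecule (-1.95 ± 0.22, 2.16e-08), Gpihbp1 (-1.84 ± 0.25, 6.40e-07) and Emcn (-1.71 ± 0.16, 6.22e-10). Calcrl, a receptor for adrenomedullin and CGRP, was the gene that was higher in B16-IFNA4 tumors (0.70), chosen for naming after its value was seen. Between B16-IFNA9 and B16-IFNA4 tumors 8 of the 24 were lower and none higher, against 7.25% and 10.5% of all genes (median -0.39, and -0.01 over all genes). The 8 lower genes included Esam, Rasip1 and Cd93. That count was 5 when any 1 of 9 tumors was left out (B16-IFNA4 replicate 4, 7, 8 or 10, or B16-IFNA9 replicate 2, 3, 7, 9 or 10).

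The counts were then scaled so that the median of these 24 genes was level, which asks how each gene stood per unit of endothelial RNA. Relative to the TMM scale, the log2 factor of this list was 0.50 ± 0.36 (SD, n = 10) in B16-GFP, -0.05 ± 0.19 in B16-IFNA4 and -0.46 ± 0.37 in B16-IFNA9 tumors. Per endothelial list, Sele (1.97 ± 0.29), Kdr (1.94 ± 0.17), Selp (1.14 ± 0.24) and Tek (0.73 ± 0.19) were higher in B16-IFNA4 than in control tumors (edgeR adjusted p 0.00135 or less). Esm1 (-1.73 ± 0.33), Plvap (-0.39 ± 0.15) and Tie1 (-0.36 ± 0.15) were lower, and Pecam1 (0.15), Cdh5 (-0.27) and Vwf (-0.22) did not pass the test. Without B16-GFP replicate 7, Cdh5 passed as well (-0.29, edgeR adjusted p 0.0400), which made it 4 lower. With the sum of the list in place of its median, 3 of the 10 were higher and 5 lower, with Tek lost (0.33, edgeR adjusted p 0.162) and Cdh5 and Vwf added to the lower. On this scale 53.7% of all genes were higher and 7.98% lower, so a higher call is common and a lower one is not.

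In B16-IFNA9 tumors Sele (1.22 ± 0.29), Kdr (0.97 ± 0.17), Vwf (0.95 ± 0.18) and Tek (0.85 ± 0.19) were higher per endothelial list than in the controls, as 79.3% of all genes were. Esm1 (-2.38 ± 0.34), Plvap (-0.77 ± 0.15), Tie1 (-0.63 ± 0.15) and Cdh5 (-0.57 ± 0.13) were lower, as 1.28% of all genes were. With the sum of the list in place of its median, which Fabp4, also a fat gene, leads with a mean of 643 CPM in the controls, none of the 4 higher calls held, while 5 genes were lower. Between the IFN-I–secreting types Vwf was higher (1.17 ± 0.18) and Kdr (-0.97 ± 0.17), Selp (-0.88 ± 0.24), Sele (-0.75 ± 0.28), Plvap (-0.38 ± 0.15) and Cdh5 (-0.31 ± 0.13) were lower, against 42.8% and 1.83% of all genes. Of these 5 lower calls 2 held with the sum of the list, where Cdh5 (-0.50), Plvap (-0.57) and Sele (-0.91) had no smaller differences but did not pass (edgeR adjusted p 0.0512, 0.0673 and 0.0584). With 5 less specific genes left out of the list 3 held, and Cdh5 (-0.26, adjusted p 0.0792) and Plvap (-0.33, 0.0565) did not pass.

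**Figure D2:**
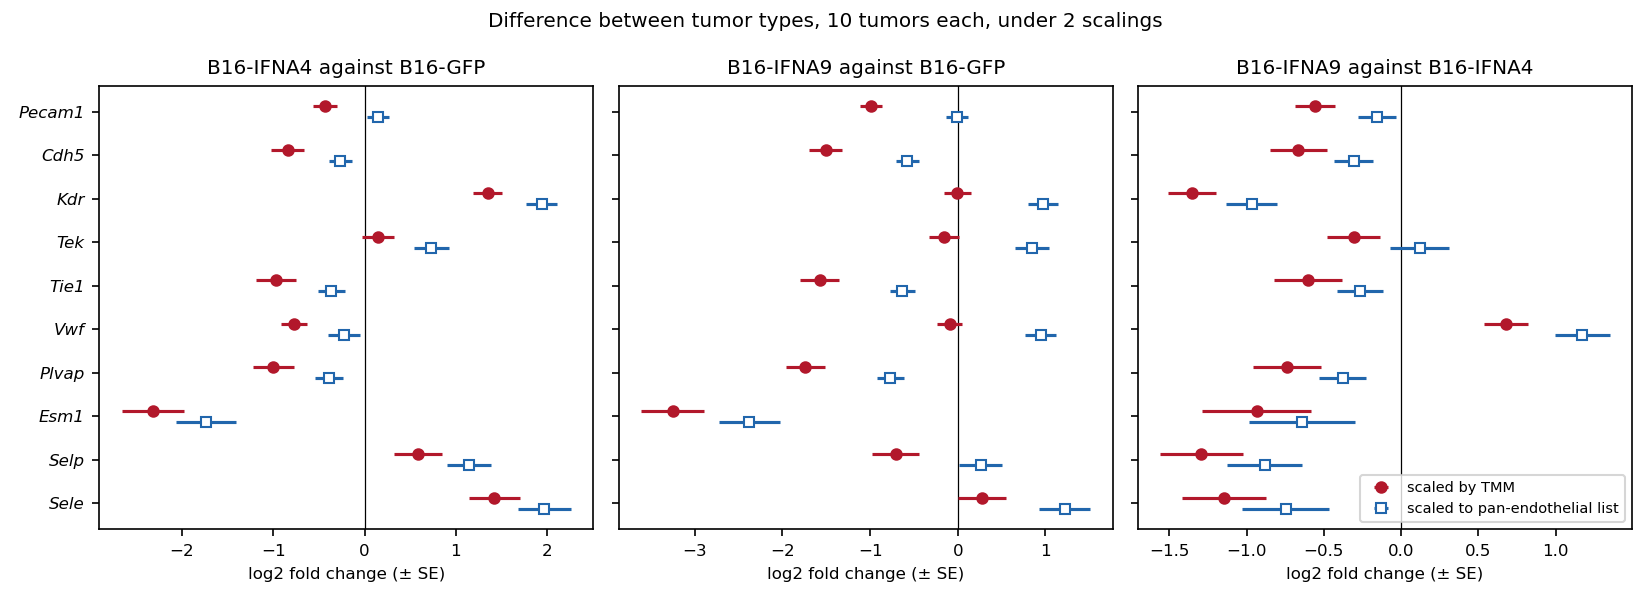
Log2 fold change (± SE) of each gene between tumor types, scaled by TMM (red circles) and to the pan-endothelial list (blue squares), with 10 tumors per type. Esm1 stays left of 0 in the comparisons with B16-GFP on both scales, and Kdr and Sele stay right of 0 in B16-IFNA4 tumors.

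Ratios of reads within a tumor need no scaling and were taken as a description. Reads of Kdr per read of Cdh5 numbered 0.482 to 0.909 (median 0.666) in B16-GFP, 1.94 to 5.54 (2.90) in B16-IFNA4 and 1.21 to 2.91 (2.26) in B16-IFNA9 tumors. Both IFN-I–secreting types thus lay above all controls in this ratio. In B16-IFNA9 tumors Kdr itself did not pass the test (median 45.6 CPM against 47.3 CPM in the controls), whereas Cdh5 was lower (22.2 against 65.4 CPM). A high ratio there does not mean a higher level of Kdr. For Vwf per Cdh5 the control and B16-IFNA4 tumors shared a range, 0.433 to 0.682 (median 0.551) and 0.353 to 0.834 (0.523), whereas B16-IFNA9 tumors had 0.893 to 3.42 (1.45), above both. Vwf itself did not pass the test between B16-IFNA9 and control tumors (medians 34.0 and 39.4 CPM). Esm1 per Cdh5 fell to a median of 0.0481 in B16-IFNA4 and 0.0487 in B16-IFNA9 tumors from 0.155 in the controls. Tie1 per Cdh5 had medians of 0.262, 0.244 and 0.257 in B16-GFP, B16-IFNA4 and B16-IFNA9 tumors, with ranges that overlapped throughout.

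Vegfa, the main ligand of VEGFR2, had a mean of 200.4 ± 66.3 CPM in B16-GFP, 200.7 ± 43.8 CPM in B16-IFNA4 and 200.1 ± 49.0 CPM in B16-IFNA9 tumors (SD, n = 10). Its log2 fold change against the controls had a 95% interval of -0.33 to 0.33 in both IFN-I–secreting types. Of 8 VEGF ligands and receptors tested besides Kdr, 1 was higher and 2 lower in each IFN-I–secreting type, shares no larger than those of all genes (31.3% and 34.1% in B16-IFNA4, 26.9% and 28.9% in B16-IFNA9). Vegfd, a ligand of the lymphatic receptor VEGFR3, was higher (0.91 ± 0.20, edgeR adjusted p 2.77e-04, in B16-IFNA4, and 0.78 ± 0.20, 0.00172, in B16-IFNA9). Vegfb (-1.23 ± 0.15 and -0.85 ± 0.15) and the coreceptor Nrp2 (-0.83 ± 0.09 and -0.29 ± 0.09) were lower. Nrp2 was higher in B16-IFNA9 than in B16-IFNA4 tumors (0.53 ± 0.09, adjusted p 7.08e-05) and Flt1, the VEGF receptor 1, lower (-0.52 ± 0.14, 0.00918). Among 4 angiopoietin ligands and partners tested, Angpt2, the antagonist that tip cells make, was lower in B16-IFNA4 (-1.04 ± 0.14, adjusted p 1.42e-07) and B16-IFNA9 tumors (-0.84 ± 0.14, 8.65e-06). Angptl1 (0.97 and 0.92) and Svep1 (0.64 and 0.40) were higher in both types than in the controls, and none of the 4 passed the test between the types. The Svep1 call in B16-IFNA9 tumors was at the edge of the test (edgeR adjusted p 0.04997).

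Of 15 tip cell and sprouting genes tested, 3 were higher and 9 lower in B16-IFNA4 tumors (median log2 fold change -0.55), against 31.3% and 34.1% of all genes, and none higher and 9 lower in B16-IFNA9 tumors (-0.74), against 26.9% and 28.9%. Adm, a vessel-acting peptide induced by low oxygen (-1.51 ± 0.17, edgeR adjusted p 8.25e-09), and Kcne3, a channel subunit (-1.23 ± 0.24, 5.89e-05), were lower in B16-IFNA4 tumors, and Cxcr4, a chemokine receptor that leukocytes also carry, was higher (1.17 ± 0.17, 8.87e-07). In B16-IFNA9 tumors the apelin receptor Aplnr (-2.23 ± 0.19, 5.05e-11), its ligand Apln (-1.56 ± 0.15, 6.65e-10) and the Notch ligand Dll4 (-1.93 ± 0.23, 5.72e-08) were furthest. Aplnr fell below B16-IFNA4 levels as well (-1.24 ± 0.18, adjusted p 1.90e-05), without overlap of the tumors. Esm1, also a tip cell gene, stood beside these with larger differences against the controls.

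Of 11 arterial and Notch genes, 8 were lower in each IFN-I–secreting type, against 34.1% and 28.9% of all genes, and 2 were higher in B16-IFNA4 and 1 in B16-IFNA9 tumors (medians -0.82 and -1.17). The higher ones, named after their values were seen, were Efnb2, an ephrin of arteries, in both types (0.75 ± 0.20 and 0.50 ± 0.19) and the receptor gene Notch1 in B16-IFNA4 tumors (0.65 ± 0.27). The summed level of the 11 genes did not follow their median, with means of 180, 221 and 185 CPM in B16-GFP, B16-IFNA4 and B16-IFNA9 tumors. Examples are the Notch target Hey2 (-1.75 ± 0.26, edgeR adjusted p 1.26e-06) and the connexin gene Gja4 (-1.51 ± 0.27, 2.08e-05) in B16-IFNA4, and Gja4 (-2.03 ± 0.28, 7.29e-07) and Notch4 (-1.32 ± 0.23, 2.30e-05) in B16-IFNA9 tumors. Of 4 venous genes, Ackr1, the chemokine carrier of venules, was higher in B16-IFNA4 tumors (0.77 ± 0.17, adjusted p 1.92e-04). Nr2f2, the venous transcription factor, was lower in them (-0.72 ± 0.11, 2.45e-06) and 1.75-fold higher in B16-IFNA9 than in B16-IFNA4 tumors without overlap (0.81 ± 0.11, 8.97e-06). Aplnr, on this list too, and Nr2f2 were the 2 lower in B16-IFNA4, and Aplnr and Ephb4 the 2 lower in B16-IFNA9 tumors, where none of the 4 was higher.

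Of 11 other adhesion molecules of leukocyte capture tested, 4 were higher and 2 lower in B16-IFNA4 tumors, against 31.3% and 34.1% of all genes, and 3 higher and 4 lower in B16-IFNA9 tumors, against 26.9% and 28.9% (medians 0.03 and 0.07). The shares of higher genes were near those of all genes. Icam1, a ligand of leukocyte integrins, was 2.43-fold higher in B16-IFNA4 (1.28 ± 0.18, edgeR adjusted p 3.44e-07), with no overlap, and 2.03-fold higher in B16-IFNA9 tumors (1.02 ± 0.18, 1.89e-05). Vcam1, the ligand of VLA-4, was 2.34-fold higher in B16-IFNA4 tumors (1.23 ± 0.20, adjusted p 4.00e-06), and lower in B16-IFNA9 than in B16-IFNA4 tumors (-0.67 ± 0.20, 0.0151). Esam and, in B16-IFNA9 tumors, the sialomucin Podxl (-0.85 ± 0.19, adjusted p 3.21e-04) were lower than in the controls. Many of these molecules are also made by cells other than endothelium.

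On the side of the leukocyte, 7 of 13 selectin ligand and enzyme genes tested were higher and 1 lower in each IFN-I–secreting type (medians 0.37 and 0.24). Of all genes, 31.3% were higher and 34.1% lower in B16-IFNA4, and 26.9% and 28.9% in B16-IFNA9 tumors. None of the 13 was higher and 3 were lower in B16-IFNA9 than in B16-IFNA4 tumors, against 10.5% and 7.25% of all genes. Among the 3 were the glycosyltransferase genes Gcnt1 (-0.53) and B4galt1 (-0.28). Selplg, the ligand PSGL-1 that P-selectin binds, was 3.01-fold higher in B16-IFNA4 (1.59 ± 0.24, edgeR adjusted p 1.34e-06) and 2.504-fold higher in B16-IFNA9 tumors (1.32 ± 0.24, 3.13e-05). Fut7, a fucosyltransferase that completes selectin ligands, was higher in both (2.25 ± 0.34 and 2.42 ± 0.34) from a low mean of 0.247 CPM in the controls. For Selplg and Fut7 neither type overlapped with control tumors, as for 18.5% of all genes in B16-IFNA4 and 7.79% in B16-IFNA9.

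Of 6 lymphatic endothelial genes tested, 4 were higher and 1 lower in B16-IFNA4 tumors, against 31.3% and 34.1% of all genes, and 5 higher and none lower in B16-IFNA9 tumors, against 26.9% and 28.9%, with medians of 0.78 and 0.75. Mmrn1 (1.91 ± 0.26, edgeR adjusted p 3.44e-07), Ccl21a, a chemokine of lymphatic vessels (1.52 ± 0.26, 1.14e-05), and Reln (1.21 ± 0.23, 5.48e-05) led in B16-IFNA4 tumors, and the same 3 in B16-IFNA9 tumors (1.66, 1.26 and 0.85). Prox1, the lymphatic master factor, had 6.89 ± 1.30 CPM in B16-GFP, 7.98 ± 1.01 CPM in B16-IFNA4 and 10.8 ± 1.68 CPM in B16-IFNA9 tumors (SD, n = 10), and was higher in B16-IFNA9 than in B16-IFNA4 tumors (0.43 ± 0.11, adjusted p 0.00640). Lyve1, which some macrophages share, was higher there as well (1.29 ± 0.25, 3.82e-04), and Pdpn, also made by fibroblasts, was lower (-0.39 ± 0.11, 0.0148), with a median of -0.25 over the 6 genes. Ccl21a belongs to a family of near-identical copies, so its counts are uncertain.

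**Figure D3:**
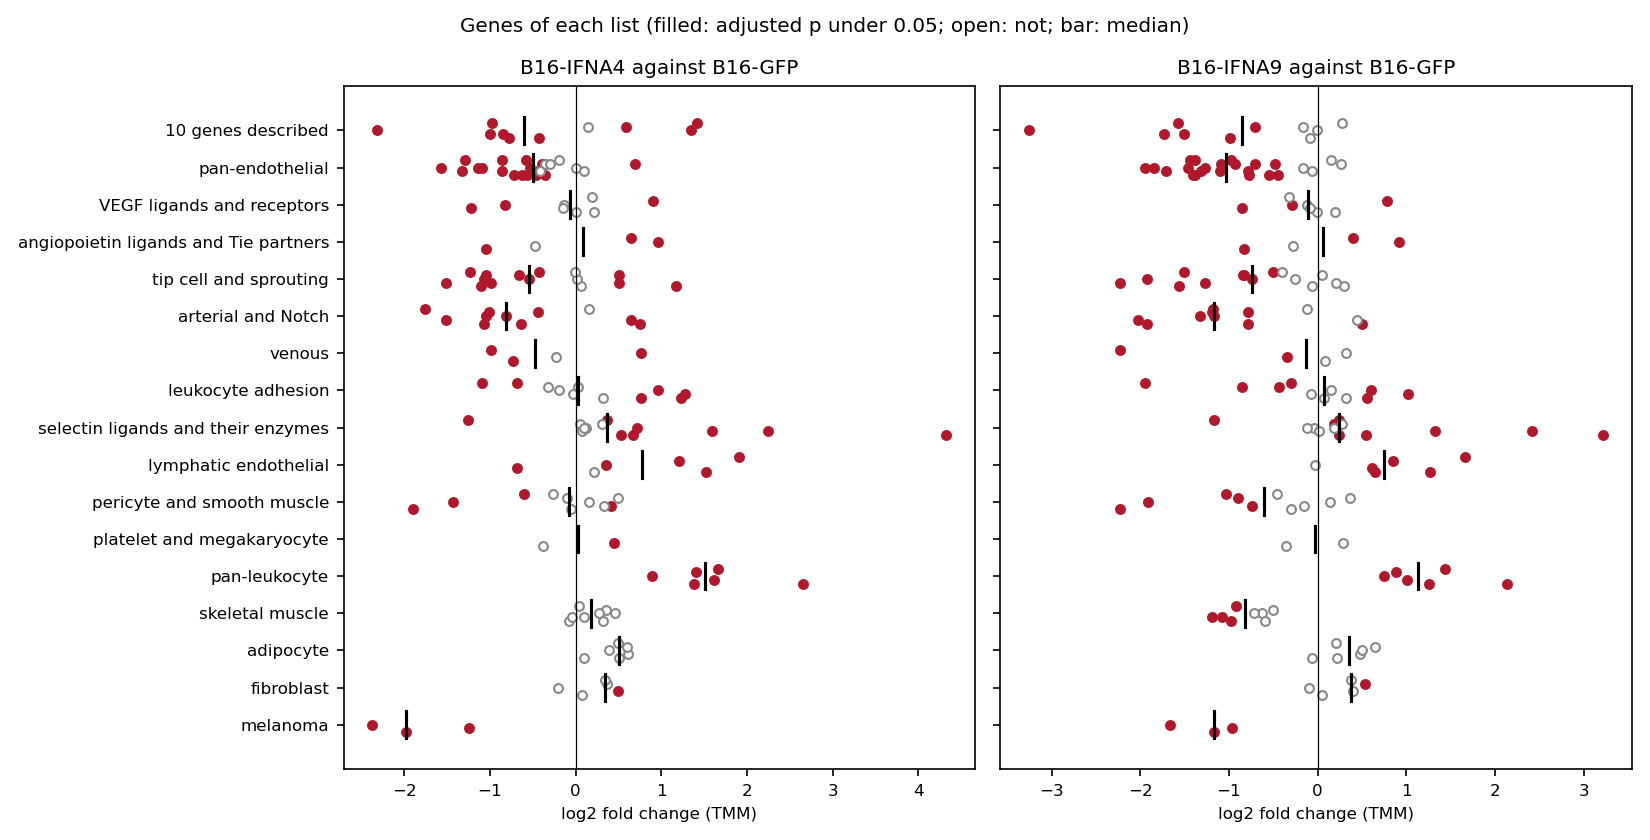
Log2 fold change of each tested gene by list in B16-IFNA4 and B16-IFNA9 against B16-GFP tumors. Filled points passed the test, open points did not, and bars are medians. The medians of the pan-endothelial, tip cell and arterial lists lie left of 0, and those of the lymphatic and pan-leukocyte lists right of 0.

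Some markers of other cells differed between the tumor types as well. Of all genes, 31.3% were higher and 34.1% lower in B16-IFNA4, and 26.9% and 28.9% in B16-IFNA9 than in control tumors. The summed level of 6 pan-leukocyte genes ran from 177 to 625 CPM in B16-GFP, 967 to 1996 CPM in B16-IFNA4 and 699.95 to 1392 CPM in B16-IFNA9 tumors, with 6 of 6 genes higher in each IFN-I–secreting type. Ptprc had 80.7, 508 and 355 CPM on average. Pericyte genes had Rgs5 3.74-fold lower in B16-IFNA4 (-1.90 ± 0.17, edgeR adjusted p 9.45e-11) and 4.67-fold lower in B16-IFNA9 tumors (-2.22 ± 0.17, 9.62e-12), without overlap, as for 18.5% and 7.79% of all genes. Of 10 pericyte and smooth muscle genes 3 were lower and 1 higher in B16-IFNA4, and 5 lower and none higher in B16-IFNA9 tumors (medians -0.08 and -0.60), and the B16-IFNA4 count was near the 34.1% of all genes that were lower. The list had sums of 393 to 1394, 418 to 822 and 197 to 652 CPM in the 3 types. Melanoma genes were lower, 3 of 3 in each type (Tyrp1 -1.97 and -1.17). Their sum ran from 7058 to 24080 CPM in B16-GFP, 2064 to 3381 CPM in B16-IFNA4 and 3199 to 8655 CPM in B16-IFNA9 tumors. The part of these cells in the results on the 10 genes was not tested.

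Skeletal muscle, which lies under the skin, was in all tumors, with sums of 3628 to 18201, 4412 to 15660 and 1764 to 13442 CPM in B16-GFP, B16-IFNA4 and B16-IFNA9 tumors. None of its 8 genes passed the test in B16-IFNA4, 4 were lower in B16-IFNA9 than in control tumors, and 7 lower in B16-IFNA9 than in B16-IFNA4 tumors. Of all genes, 31.3% were higher and 34.1% lower in B16-IFNA4, and 26.9% and 28.9% in B16-IFNA9 than in control tumors. Between the IFN-I–secreting types 7.25% of all genes were lower in B16-IFNA9. As Pearson correlations of log2 CPM centered within type over 30 tumors, which share libraries and scaling, and in brackets second without B16-GFP replicate 7, Ckm had r with Tie1 (0.78, 0.80), Plvap (0.64, 0.64), Cdh5 (0.63, 0.63), Esm1 (0.07, 0.08) and Sele (-0.07, -0.17). In the same measure Rgs5 had r with Pecam1 (0.81, 0.71), Kdr (0.71, 0.58) and Cdh5 (0.68, 0.67). The values fell more without that tumor for the fibroblast gene Pdgfra with Sele (0.72, 0.48), and for Ptprc with Kdr (0.61, 0.38), Sele (0.61, 0.27) and Tek (0.60, 0.21). Over the 10 genes Adipoq had r from -0.09 (-0.33) with Sele to 0.62 (0.60) with Tie1. Pf4 had r from 0.05 (0.09) with Esm1 to 0.58 (0.54) with Tie1. Fibroblast genes had 1 of 5 higher in each type, and none of the 6 fat genes passed the test. Of 2 platelet genes tested, Itga2b was higher in B16-IFNA4 tumors (0.45 ± 0.19, edgeR adjusted p 0.0395). The sum of the 8 platelet genes with a row lay between 23.8 and 78.9 CPM in all tumors. The part of these cells in the levels of Vwf, Selp and the other genes was not tested.

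Pairs of the genes were compared from tumor to tumor after centering each tumor type, over 30 tumors, with 6 pairs and 100000 permutations within types (two-sided, Benjamini-Hochberg over the 6). Cdh5 and Tie1 went together (r = 0.87, adjusted p 6e-05, built on the smallest p the permutations can give, rho = 0.84), within each type (r = 0.97, 0.73 and 0.86 in B16-GFP, B16-IFNA4 and B16-IFNA9), and without the 2 tumors farthest from the median of Cdh5 (0.86). Sele and Selp had r = 0.58 (permutation p 0.00715, adjusted 0.0215) but rho = 0.42 (adjusted 0.0864), and r = 0.37 without the 2 farthest tumors. Without B16-GFP replicate 7 alone, r was 0.30 (permutation, adjusted p 0.258), which no longer passed the test. Kdr and Tek had r = 0.43 (permutation, adjusted p 0.105, rho = 0.20) and 0.03 without that tumor. Within B16-GFP, B16-IFNA4 and B16-IFNA9 tumors r was 0.63, 0.55 and 0.51 for the selectins and 0.89, -0.19 and -0.29 for Kdr and Tek. Esm1 with Kdr (r = 0.16, rho = 0.23), Esm1 with Plvap (r = 0.33, rho = 0.27) and Vwf with Selp (r = 0.11, rho = -0.01) did not pass (adjusted permutation p of r 0.439, 0.11 and 0.565, of rho 0.335, 0.326 and 0.948), and were 0.22, 0.14 and -0.06 without the farthest 2 tumors. In the same order of types r was -0.15, 0.18 and 0.38 for Esm1 with Kdr. It was 0.54, 0.06 and 0.54 for Esm1 with Plvap, and 0.58, 0.11 and -0.65 for Vwf with Selp.

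**Figure D4:**
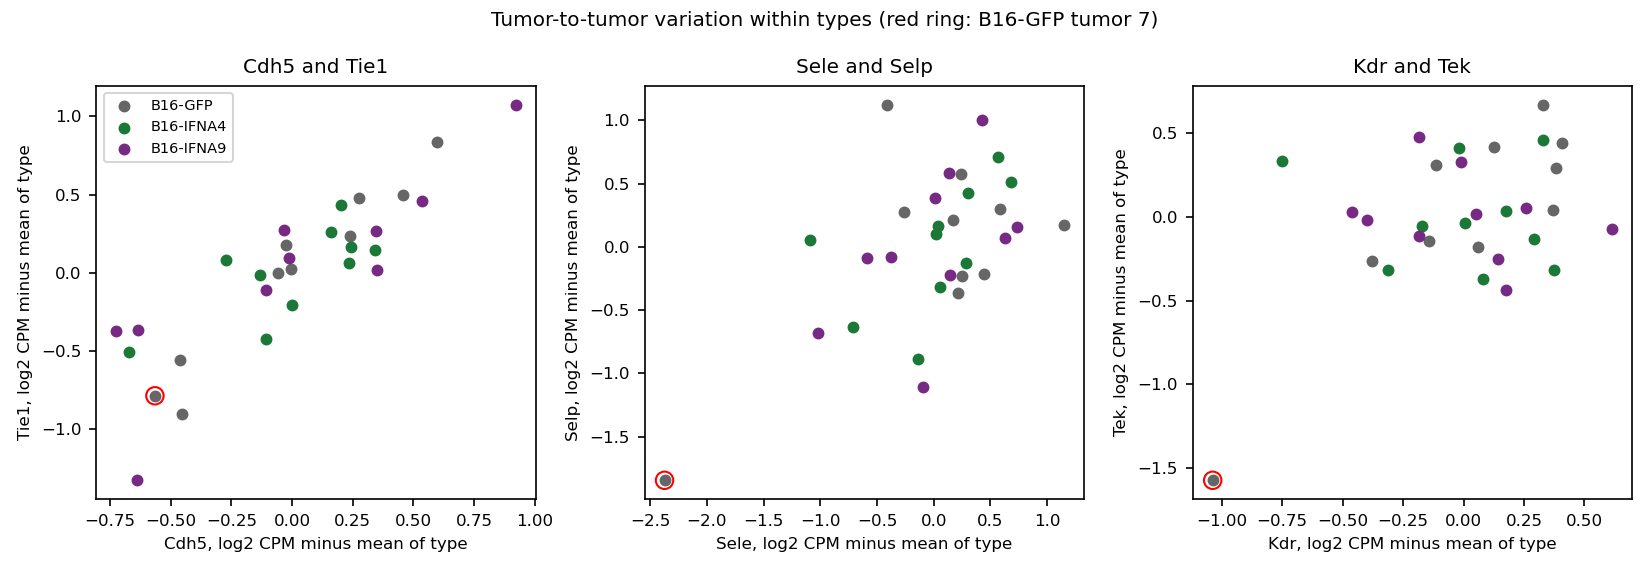
Log2 CPM minus the mean of the tumor type for 3 pairs of genes, with points colored by type. Cdh5 and Tie1 lie along a line in all 3 types (r = 0.87), whereas B16-GFP replicate 7 (red ring) sits apart at the lower left for Sele with Selp and Kdr with Tek.

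Among all 45 pairs of the 10 genes, as a description with shared libraries and scaling, Cdh5 and Plvap had the highest r (0.89), and Cdh5, Tie1, Plvap and Pecam1 had r of 0.73 to 0.89 with each other. Esm1 was the gene least tied to the rest, with r from -0.07 to 0.33. Vwf ranged from -0.07 with Esm1 to 0.40 with Tie1.

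**Figure D5:**
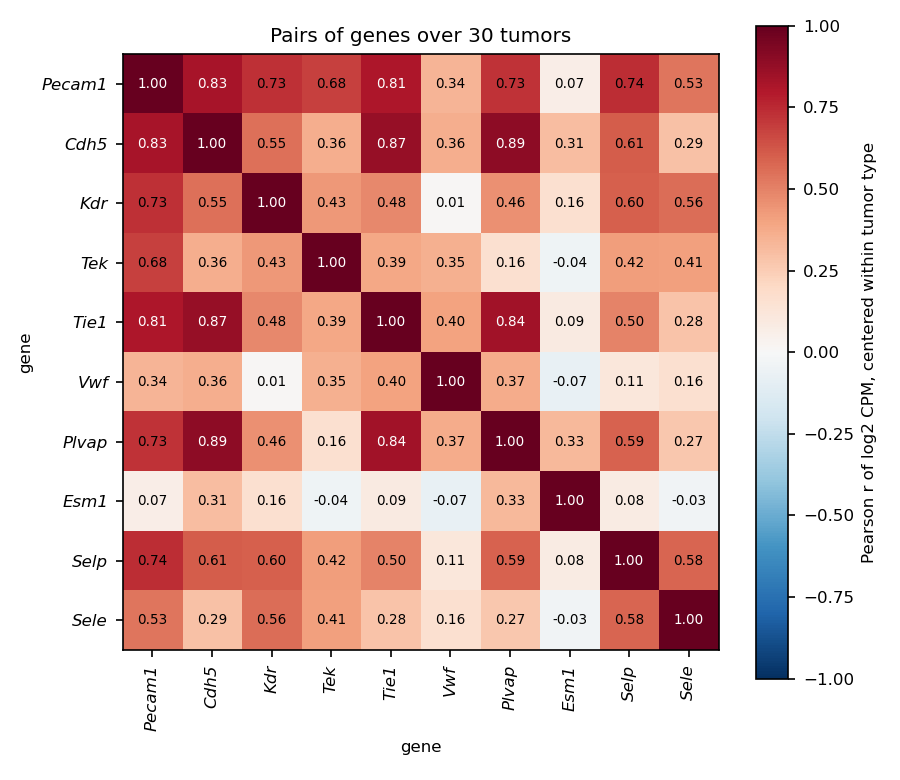
Pearson r of log2 CPM, centered within tumor type, between the 10 genes over 30 tumors. Red cells are positive. The darkest cell off the diagonal joins Cdh5 and Plvap (0.89), and the row of Esm1 is the palest.

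The genes most like each of the 10 in this measure were sought among all genes tested, with r over 30 tumors and, in brackets, without B16-GFP replicate 7. For Cdh5 they were Plvap (0.89, 0.90), Tie1 (0.87, 0.86) and Dysf (0.84, 0.83), and for Plvap they were Cdh5, Sox18 (0.88, 0.89) and Tie1 (0.84, 0.86). Tie1 had Ifi27l2a (0.89, 0.88), Cd300lg (0.88, 0.87) and Cdh5, and Pecam1 had Abcc3 (0.88, 0.80), Fgd5 (0.88, 0.82) and Npr1 (0.87, 0.79). Kdr was nearest to Ms4a7 (0.78, 0.70), Cd93 (0.78, 0.69) and AI504432 (0.77, 0.64), and Vwf to Rasd2 (0.77, 0.82), B4galt2 (0.76, 0.72) and Iglon5 (0.75, 0.69). Sox18, Cd93, Cdh5, Plvap and Tie1 are themselves endothelial genes. Tek had Itih5 (0.88, 0.72), Abca6 (0.88, 0.72) and Lama2 (0.87, 0.70). Selp had Pxdn (0.77, 0.62), Col6a3 (0.76, 0.61) and Musk (0.75, 0.63), and Sele had Tbc1d14 (0.87, 0.75), Awat1 (0.84, 0.68) and Slc5a1 (0.83, 0.72). For Pecam1, Kdr, Tek, Selp and Sele all 3 values were lower without the tumor that stood apart. Esm1 had the weakest over 30 tumors, Gm10443 (0.69, 0.69), Agbl2 (0.64, 0.66) and Raet1d (0.57, 0.58).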

How the data were processed

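RNA of 30 whole tumors was sequenced by the authors with TruSeq Stranded mRNA libraries and single 50-base reads. FastQC 0.11.3, HISAT2 2.0.4 and the build mm10 stand in the submitters' processing notes, whereas the methods name another build label. The authors deposited raw counts of reads per gene from summarizeOverlaps. The annotation release and the strand setting are not given in the sources used here. Of 39676 gene identifiers, 39495 matched GENCODE M21, which gave symbols, positions and exon lengths.

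Tumors were grouped by title. Genes averaging 10 counts or more were fitted with edgeR 4.0.16 (R 4.3.3, TMM, quasi-likelihood test, all 30 tumors in 1 fit, no covariate, Benjamini-Hochberg over all genes, threshold 0.05). SE and 95% intervals come from that fit. A second fit scaled libraries to the median ratio over 24 general endothelial genes, none of them among the 10. Correlations used log2 CPM with a prior count of 2 (Python 3.11.15, scipy 1.17.1) and 100000 permutations. The fits were tested on simulated data. No identical libraries were found, and all 135 pairs within a type differed by far more than sampling noise (chi-square per gene of at least 14.1 over 11436 genes). The sample titles say no more of the replicates than that they are biological. The authors' methods state, for all experiments, a minimum of 2 biological repeats, and 2 technical repeats in each. Which of these 30 tumors shared an experiment is not stated.

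The 10 genes and all lists were chosen with earlier results of these data known. Named in full were the 10 genes, from each list the 3 with the largest change among those called in each comparison, the 3 genes most like each of the 10, and defining genes of other cells. For the pericyte, leukocyte, muscle, fibroblast and melanoma lists most genes of that rule are given as counts only, and 1 other gene that it would name is not reported here. Others were named after their values were seen. Some genes stand on more than 1 list (Esam, Aplnr, Angpt2, Dll4, Sox17, Ackr1, Icam2, Fabp4 and Ptprb). Alternatives were DESeq2 1.42.0, other scalings and filters, a replicate block, fits of 20 tumors, a 2-fold minimum, and, chosen after seeing the data, leaving out each tumor besides B16-GFP replicate 7. Promoters and motifs are from RefSeq for GRCm38.p6.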

Additional observations from a re-analysis of the deposited data

Results flagged for a closer look

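In a search of 33 groups of 10 tumors for a single tumor far from the others, 4 were found, where chance alone gives about 1 in 20 groups. B16-GFP replicate 7 was the tumor in 3 of them. Its log2 CPM of Tek was 3.15 against 4.46 in the next tumor, that of Selp 0.45 against 1.93, and that of Sele -1.38 against 0.58, from 3 counts. Its markers of leukocytes, fibroblasts and melanoma cells also stood apart, and their part in these values was not tested. The log2 factor of the general endothelial list, relative to TMM, was -0.49 in B16-IFNA4 replicate 1 against -0.16 in the next B16-IFNA4 tumor, and this tumor also had the lowest Pecam1, Cdh5, Tie1, Plvap and Selp of its type.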

How the results depend on the processing

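Across the other settings, 139 of 156 counts and pair correlations and 349 of 390 single-gene values kept their direction and their side of the threshold, or stayed within 1.5 times. Requiring a 2-fold change left 1 of the 10 genes lower in B16-IFNA4 than in B16-GFP tumors, and 0 higher and 3 lower in B16-IFNA9 than in B16-IFNA4 tumors, against 8.28% of all genes lower in the first comparison and 1.44% higher and 1.39% lower in the second. It left 0 higher and 5 lower, 12 lower, and 0 lower general endothelial genes in the 3 comparisons. Of all genes it left 10.4% higher and 8.28% lower, 4.78% lower, and 1.39% lower. For that list, library totals gave 1 higher gene in B16-IFNA9 than in B16-GFP tumors, and B16-IFNA9 against B16-IFNA4 gave 5 lower with no filter and 1 higher with only 20 tumors in the fit. With 1 tumor left out, 0 to 1 of the list were higher in B16-IFNA9 than in B16-GFP tumors (1 without B16-IFNA9 replicate 5), and 5 to 11 lower in B16-IFNA9 than in B16-IFNA4 tumors.

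Per endothelial list, the sum in place of the median gave 5 lower in B16-IFNA4 and 0 higher in B16-IFNA9 against B16-GFP, and 2 lower between the IFN-I–secreting types, where the list without 5 genes gave 3. The sum turned Pecam1 in B16-IFNA4 to -0.20, Selp in B16-IFNA9 to -0.21 and Tek between the types to -0.0313, and the list without 5 genes turned Pecam1 in B16-IFNA9 to 0.0216. None of these 4 passed the test. Without B16-GFP replicate 7, Sele with Selp had r = 0.304 and Vwf with Selp r = -0.14.

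The log2 fold change of Kdr in B16-IFNA9 against B16-GFP tumors, near 0, was 0.0785 with library totals, 0.0017 with filterByExpr, 0.0008 with no filter, 0.0040 with 20 tumors and 0.0085 with the replicate block, and -0.0806 to 0.0521 with 1 tumor left out. That of Vwf was 0.0074 with library totals. The cause was not tested.

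Same-numbered tumors were compared for a sign of pairing. Of 30 correlations of same-numbered tumors 4 were over 0.1 (median -0.05, highest 0.30). Differently numbered tumors were not compared, so these values cannot tell whether same-numbered tumors shared an experiment. With the replicate block 2 of the 10 genes were higher and 6 lower in B16-IFNA4, 0 and 6 in B16-IFNA9, and 1 and 7 between these types, with Selp at 0.61 (edgeR adjusted p 0.0576) in B16-IFNA4 and Tie1 at -0.70 (0.0327) between them. Per endothelial list the block gave 2 lower between the types, with Cdh5 (-0.318), Plvap (-0.373) and Sele (-0.728) about as large but not passing (adjusted p 0.0592, 0.0716 and 0.0601).

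Depth limited Sele, Selp and Esm1 most, with as few as 3, 14 and 4 counts in a tumor.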
